A study of Homo sapiens with 2 samples.

Results

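Chemokine ligands were examined in ACHN cells, an established human renal cell carcinoma line, as the genes whose symbols are CCL, CXCL, CX3CL or XCL followed by a number. The deposited tables held 9 such genes among 12014 protein-coding genes, namely CCL2, CCL28, CXCL1, CXCL2, CXCL3, CXCL8, CXCL14, CXCL16 and CX3CL1. Lentiviral vectors had delivered either a hairpin RNA that targets KIAA1429 (shKIAA1429) or a non-targeting one (shNC), stably infected cells had been selected with puromycin, and 1 poly(A) library of each was sequenced. The treatment label of the shKIAA1429 library speaks of a knockout, whereas the study's methods describe a knockdown, and they do not say which of the KIAA1429 shRNAs was sequenced. KIAA1429, listed as VIRMA, was at 3.92 FPKM with shNC and at 3.22 FPKM with shKIAA1429, or 82.1% of its value in the control. Levels are FPKM, fragments scaled to gene length and to the size of the library, and a change is the difference in log2(FPKM + 1), shKIAA1429 minus shNC. The change of VIRMA was -0.22, a small one, as the lower quartile over genes with a mean of at least 1 FPKM was -0.15. Its value was not rescaled for the differing library sums given below. No difference has a replicate check, so no test was made.

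Chemokines are small secreted or membrane-bound proteins that guide migrating leukocytes through receptors coupled to G proteins. The CXC ligands with a Glu-Leu-Arg motif (CXCL1, CXCL2, CXCL3 and CXCL8) bind CXCR2, and in the case of CXCL8 also CXCR1, and attract neutrophils. CCL2 binds CCR2 and attracts monocytes. Renal tubular cells are known to make CCL2 and CXCL8 when inflammatory cytokines activate NF-kappaB, and the mRNAs of many inducible chemokines carry AU-rich elements in the 3' untranslated region that shorten their life.

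The 4 CXC ligands with the Glu-Leu-Arg motif lie in a cluster on chromosome 4 of GRCh37, from 74606223 to 74965010, a span of 358788 bases. RefSeq promoter windows of 300 bases, 250 before and 50 after the start of the gene on GRCh38.p14, were held for 6 of the 9 genes. CCL2, CXCL16 and CX3CL1 were not searched. The letters GGAATTTCC, the core of a NF-kappaB site, were searched on both strands and stood in the windows of CXCL1, CXCL2, CXCL3 and CXCL8, against 0.461% of all 35116 windows and 0.403% of the 13647 windows of genes listed in the files. The stretches from 110 to 11 bases before the start of the gene are shown 5' to 3' on the strand of each gene, since they carry this shared motif, which is in capitals. They lie at chr4:73869283-73869382 (plus strand), chr4:74099206-74099305 (minus strand), chr4:74038700-74038799 (minus strand) and chr4:73740459-73740558 (plus strand).
CXCL1: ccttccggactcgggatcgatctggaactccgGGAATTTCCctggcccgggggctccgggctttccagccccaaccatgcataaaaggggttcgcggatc
CXCL2: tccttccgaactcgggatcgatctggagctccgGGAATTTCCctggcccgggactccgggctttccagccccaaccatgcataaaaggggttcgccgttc
CXCL3: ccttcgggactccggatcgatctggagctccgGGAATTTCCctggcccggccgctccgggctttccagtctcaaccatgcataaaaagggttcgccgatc
CXCL8: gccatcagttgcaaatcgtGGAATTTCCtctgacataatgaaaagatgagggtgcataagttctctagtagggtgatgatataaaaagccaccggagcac

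The motif began 78 bases before the start in CXCL1 and CXCL3, 77 bases before it in CXCL2 and 91 bases before it in CXCL8. Over the stretches shown, CXCL1 was 93.1% identical to CXCL2 and 91.0% identical to CXCL3, and 44.5% identical to CXCL8. Over the whole windows of 300 bases these values were 71.9%, 82.5% and 45.2%. CXCL14 lacked GGAATTTCC in its window and held the AP-1 letters TGANTCA, which are found on either strand in 7.71% of all windows and in 5.08% of those of listed genes. Its stretch at chr5:135579002-135579101 of GRCh38.p14 (minus strand), with those letters in capitals, is given because CXCL14 had the second largest change of the family.
CXCL14: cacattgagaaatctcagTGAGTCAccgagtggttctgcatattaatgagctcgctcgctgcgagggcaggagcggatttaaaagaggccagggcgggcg

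TGANTCA was also in the window of CXCL8, from 137 to 131 bases before the start. The GC box letters GGGCGG stood in windows of CXCL1, CXCL3, CXCL14 and CCL28, against 45.0% of all windows and 67.0% of those of listed genes. For CCL28 they stood in the window at chr5:43412342-43412641 and not in that at chr5:43397088-43397387. TATAAA stood in that of CXCL8, against 11.5% and 5.91%. None of these matches overlapped a match of another motif, and in CXCL14 a pair of the GC box matches overlapped each other. A match is a description of letters and not a measured binding site.

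CCL2 and CXCL14 were the chemokine genes with the largest differences between the libraries, and both were higher with shKIAA1429. CCL2 (ENSG00000108691.9_2, chromosome 17 of GRCh37 from 32582237 to 32584222, plus strand), the monocyte attractant MCP-1, was at 4.15 FPKM with shNC and at 17.7 FPKM with shKIAA1429. This is a ratio of 4.27 and a log2 change of 1.86. CXCL14 (ENSG00000145824.12_2, chromosome 5 of GRCh37 from 134906369 to 134914969, minus strand), a chemokine made constitutively by many epithelia, was at 4.83 FPKM with shNC and at 14.0 FPKM with shKIAA1429. This is a ratio of 2.90 and a log2 change of 1.36. Whether more cells of the culture made these RNAs or each cell made more cannot be told apart in bulk RNA.

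**Figure D1:**
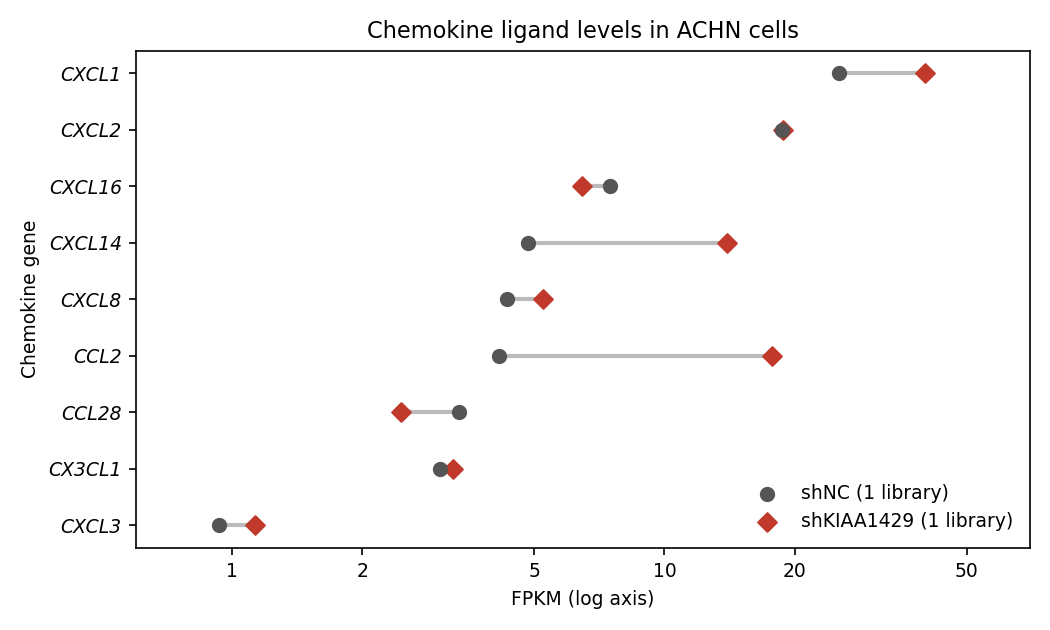
FPKM of the 9 chemokine genes on a log axis, with a grey circle for the shNC library and a red diamond for the shKIAA1429 library, joined by a line and ordered by the shNC level. CCL2 and CXCL14 lie far apart between the libraries, CXCL1 lies at 25.3 and 40.1 FPKM, and the points of CXCL2 nearly coincide.

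Among the neutrophil attractants of the chromosome 4 cluster, CXCL1 (GRO-alpha) had the highest level and the largest difference. It was at 25.3 FPKM with shNC and at 40.1 FPKM with shKIAA1429, a ratio of 1.58 and a log2 change of 0.64. CXCL2 (GRO-beta), its near-copy, was at 18.7 FPKM with shNC and at 18.8 FPKM with shKIAA1429, a log2 change of 0.01 that became -0.048 after subtracting the median change of the whole table. CXCL8 (interleukin-8) was at 4.32 and 5.22 FPKM, a log2 change of 0.22. CXCL3 (GRO-gamma), the least abundant member, was at 0.933 and 1.13 FPKM, a log2 change of 0.14. The 4 genes thus shared a cluster and the promoter letters shown above but ranged in log2 change from 0.01 to 0.64. The level of CXCL1 was 1.36 times that of CXCL2 with shNC and 2.13 times with shKIAA1429.

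Since CXCL1, CXCL2 and CXCL3 are near-copies, reads could have been split between them by the authors' counting. The GENCODE 29 transcripts of CXCL1 and CXCL2 were 80.4% identical, and 15.5% of the words of 31 bases in the CXCL1 transcript were found in that of CXCL2. CXCL1 shared 2.81% of its words with CXCL3, and the CXCL8 transcript shared 0 words with any of the 3. Summed over the 3 near-copies, the libraries held 44.9 FPKM with shNC and 60.0 FPKM with shKIAA1429, a log2 change of 0.41.

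The ligands that are made as transmembrane proteins and shed from the cell surface were close in both libraries. CXCL16 (ENSG00000161921.14_3, chromosome 17 of GRCh37 from 4636821 to 4643217, minus strand), the ligand of CXCR6, was at 7.48 FPKM with shNC and at 6.44 FPKM with shKIAA1429, a log2 change of -0.19. CX3CL1 (fractalkine), the ligand of CX3CR1, was at 3.02 and 3.24 FPKM, a log2 change of 0.08. CCL28, a chemokine of mucosal epithelia that binds CCR10, was at 3.36 FPKM with shNC and at 2.46 FPKM with shKIAA1429, a log2 change of -0.33, the lowest of the family. Among the 9 genes, 0 overlapped another listed gene on their own strand, and CXCL16 overlapped MED11 on the other strand by 85 bases.

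Summed over the 9 genes, the family amounted to 72.1 FPKM in the control and to 109 FPKM with shKIAA1429, a ratio of 1.51. CCL2, CXCL14 and CXCL1, grouped after their values were seen, went from 34.3 to 71.8 FPKM, while the other 6 genes summed to 37.8 FPKM with shNC and 37.3 FPKM with shKIAA1429. The composition of the family differed accordingly. CXCL1 made up 35.1% of the summed level with shNC and 36.7% with shKIAA1429. CXCL2 made up 25.9% and 17.2%, and CCL2 made up 5.76% and 16.2%. In the order of levels, CXCL1 and CXCL2 were the highest in both libraries, and CXCL3 was the lowest in both. CCL2 held place 6 with shNC and place 3 with shKIAA1429, and CXCL16 held place 3 with shNC and place 5 with shKIAA1429. Which neighbours in this order differ beyond experimental error cannot be said with 1 library each.

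Against all genes, CCL2, CXCL14 and CXCL1 lay high, and 4 of the 9 chemokine genes lay between the quartiles of all log2 changes, -0.15 and 0.27. All 9 chemokine genes reached a mean of 1 FPKM over the libraries, as did 10708 genes in all, and CXCL3 did so narrowly at 1.03. CCL2 was the 1 chemokine gene with a log2 change above 1.5, against 0.392% of the 10708 genes. The study's methods give 1.5 as the limit for a log2 fold change from a count model together with a p-value, and here it was set on log2(FPKM + 1). The count rests on the pseudocount of 1, since the plain FPKM ratio of CXCL14 has a log2 of 1.53 and a pseudocount of 0.1 gave 2 genes. None of the 9 (0 genes) was lower by more than 1.5, against 0.252% of all genes. With a limit of 1, CCL2 and CXCL14 were higher (2 genes), against 1.62% of all genes, and 0 were lower, against 0.897%. Higher values with shKIAA1429 by any amount were found for 7 of the 9 genes (77.8%), against 57.3% of all genes. The median log2 change was 0.14 for the family and 0.06 for all genes, and 6 of the 9 genes (66.7%) were within 0.5 of 0, against 84.0% of all genes.

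CCL2 had the increase of rank 18 among the 10708 genes, CXCL14 that of rank 57 and CXCL1 that of rank 588. When genes were divided into 20 bins by mean FPKM, 1 of the other genes in the bin of CCL2 (536 genes) had a log2 change at least as high. In the bin of CXCL14 (535 genes) 2 others did, and in the bin of CXCL1 28 others did. In the bin of CXCL8 170 others did, and in the bin of CXCL2 300 others did. Most genes in the bins of CCL28 and CXCL16 had higher changes than these members, with 69 and 110 others as low or lower.

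**Figure D2:**
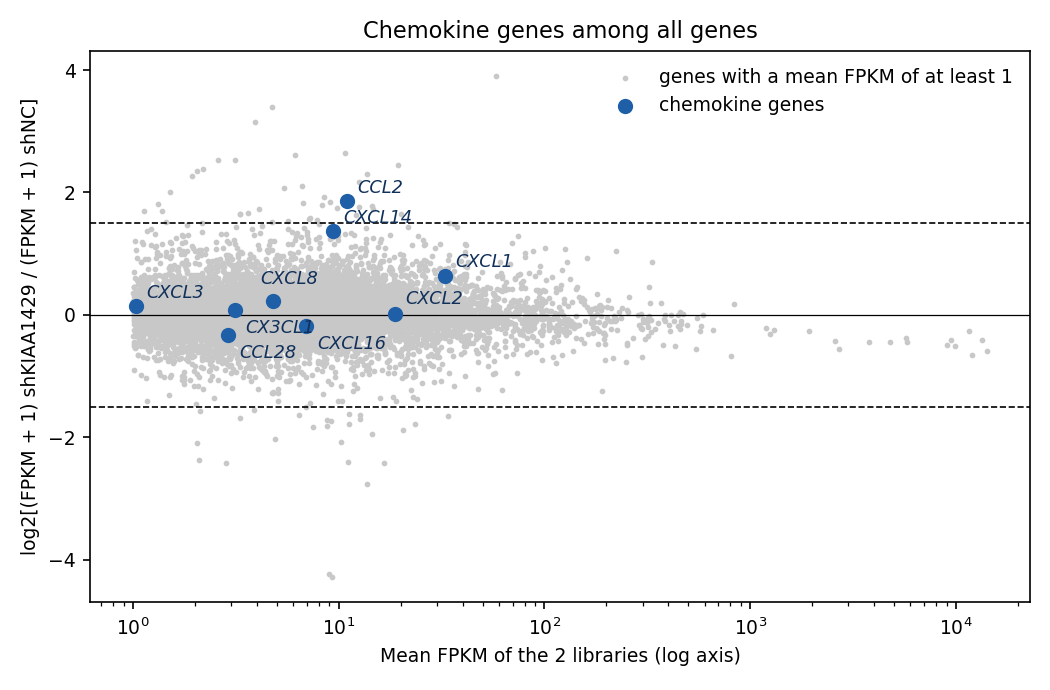
Log2 change of (FPKM + 1), shKIAA1429 over shNC, against the mean FPKM of the libraries on a log axis for the 10708 genes (grey) and the 9 chemokine genes (blue, labelled), with dashed lines at 1.5 in either direction. CCL2 lies above the upper line, CXCL14 just under it, and 6 chemokine genes lie within 0.5 of 0.

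The library sums differed between the groups, and the changes were therefore also computed on other scales. The FPKM of all listed genes summed to 283046 with shNC and 249409 with shKIAA1429, and the 13 mitochondrial genes made up 42.2% and 34.6% of these sums. When both libraries were scaled to a common sum of 1000000, the median log2 change of all genes shifted upward by 0.18. This multiplied the FPKM by 3.53 with shNC and by 4.01 with shKIAA1429 while the pseudocount stayed at 1, so it also made the pseudocount smaller relative to the levels. Scaling to the mean of both sums instead, which about keeps its relative size, shifted the median by 0.15. The change of CCL2 was between 1.80 and 2.20 under the pseudocounts and scalings tried, past 1.5 in each. That of CXCL14 was between 1.304 and 1.66, on either side of 1.5. CXCL1 was between 0.58 and 0.84, CXCL16 between -0.25 and -0.029, and CCL28 between -0.43 and -0.20. CXCL2 was the 1 member whose sign depended on the scale.

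**Figure D3:**
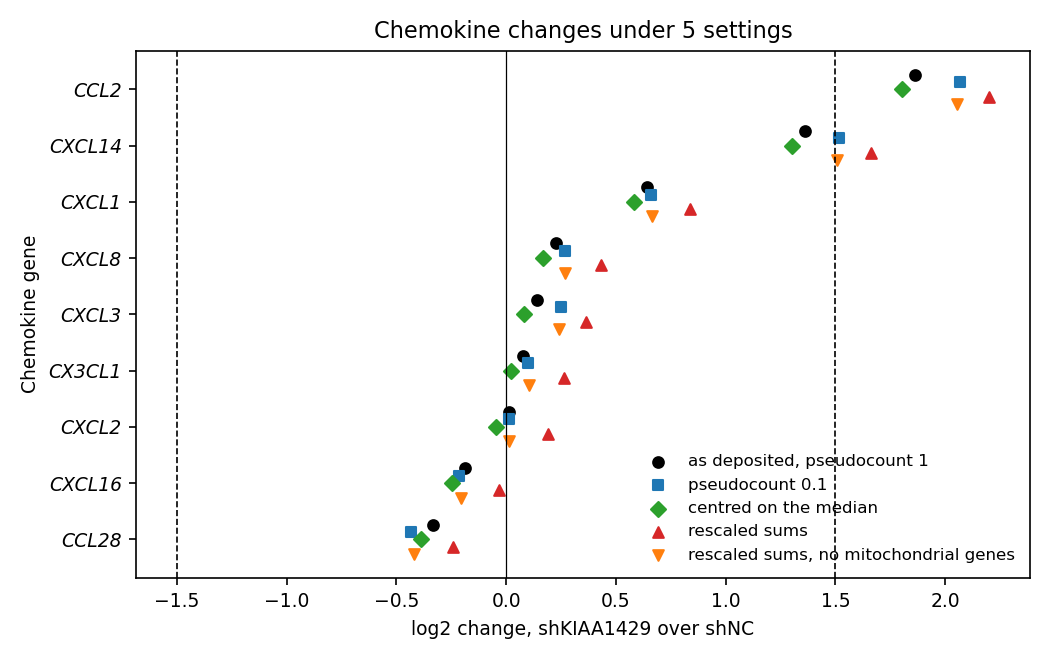
Log2 change of each chemokine gene, shKIAA1429 over shNC, under 5 settings, shown by the shape and colour of the points, with dashed lines at 1.5 in either direction. CCL2 is beyond 1.5 under each of them, CXCL14 crosses the line, and the points of CXCL2 lie on both sides of 0.

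KIAA1429 is a subunit of the complex that writes m6A in mRNA, most often in the letters GGACT and their variants, and AU-rich elements are built from the pentamer ATTTA. These letters were therefore counted in the sense strand of 1 GENCODE 29 transcript per gene. CCL2, CXCL1 and CXCL8 held 0 copies of GGACT in transcripts of 741, 1097 and 1705 bases, CXCL2, CXCL3 and CXCL14 held 1, CCL28 held 2, and CX3CL1 and CXCL16 held 4. The median of all genes was 0.932 copies per kilobase, and 2 of the 9 chemokine genes were above it. ATTTA was dense in the 3' untranslated regions of the cluster on chromosome 4, with 10 copies in the 721 bases of CXCL2, 7 in the 673 bases of CXCL3, 5 in the 706 bases of CXCL1 and 9 in the 1252 bases of CXCL8. These are 13.9, 10.4, 7.08 and 7.19 copies per kilobase, against a median of 1.66 over 10548 genes. CCL2 and CXCL14 held 1 copy each, 2.66 and 0.855 per kilobase. The nonamer TTATTTATT was found in 6 of the 9 chemokine genes and in 8.42% of all genes. It stood 3 times in CXCL1 and 5 times in CXCL2, and the genes with the largest differences, CCL2 and CXCL14, held 0 copies, as did CXCL16. Such counts describe sequences, and m6A of these mRNAs was not measured here.

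Receptors of the chemokines were little represented. Of 23 chemokine receptor genes, 2 had a row, and CCR2, CXCR1, CXCR2, CXCR6 and CX3CR1 were not analysed here. CCR10, a receptor of CCL28, was at 1.87 FPKM with shNC and at 0.713 FPKM with shKIAA1429, a log2 change of -0.74. ACKR4, an atypical receptor that scavenges other CC chemokines, was at 2.89 FPKM with shNC and at 8.90 FPKM with shKIAA1429, a log2 change of 1.35. Of 7 enzymes that shed or trim chemokines, 4 had a row. These 4 were higher with shKIAA1429, against 57.3% higher genes overall. Their log2 changes were from 0.26 to 0.37, against a median of 0.06 for all genes. ADAM10, which sheds CXCL16 and CX3CL1, was at 14.3 and 18.4 FPKM, ADAM17 was at 16.3 and 19.8 FPKM, and MMP14 was at 17.4 and 21.8 FPKM.

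Receptors of cytokines or microbial products that induce chemokines were mostly higher with shKIAA1429. The Toll-like receptors TLR2, TLR3 and TLR4 are in this list and were higher. Among 13 such genes that reached a mean of 1 FPKM, 11 had higher and 2 had lower levels, with a median log2 change of 0.39, against 57.3% higher genes and a median of 0.06 overall. LTBR, the lymphotoxin beta receptor, was at 23.6 FPKM with shNC and 35.8 FPKM with shKIAA1429. TNFRSF1A, the main TNF receptor, was at 26.4 and 32.6 FPKM, and OSMR, the oncostatin M receptor, was at 17.6 and 28.5 FPKM. TLR4, the lipopolysaccharide receptor, was at 0.445 and 2.14 FPKM, a log2 change of 1.12. This was past 1 but not 1.5, against 1.62% of all genes higher by more than 1. With shNC it was under 0.5 FPKM, so it was listed and reached a mean of 1 FPKM only through the shKIAA1429 library. Its place among the higher genes is therefore no independent result.

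Of 29 genes of NF-kappaB signaling itself, 19 were higher and 10 were lower with shKIAA1429, against 57.3% higher genes overall. The median log2 change was 0.15, against 0.06 for all genes. In either direction 0 genes passed 1, against 1.62% of all genes higher and 0.897% lower. The highest change, 0.994, was that of CYLD, at 1.16 and 3.31 FPKM. The most abundant were the kinase IRAK1 (18.4 and 19.7 FPKM with shNC and shKIAA1429), the adaptor TAB2 (13.0 and 17.7 FPKM) and the nuclear regulator NFKBIZ (15.9 and 14.3 FPKM). Among C/EBP and AP-1 factors, which act with NF-kappaB at the CXCL8 promoter, 4 were higher and 6 were lower, against 57.3% higher among all genes. Their median was -0.17, against 0.06 for all genes. After rescaling to a sum of 1000000 it was 0.0046, against 0.24 for all genes. FOSL1 was at 99.5 and 129 FPKM, JUND was at 109.9 and 71.9 FPKM, and FOSL2 was at 45.9 and 35.9 FPKM. ATF3, a stress-induced factor, was at 4.98 and 13.1 FPKM, a log2 change of 1.24. It was the 1 gene of this list higher by more than 1, against 1.62% of all genes.

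Other inflammatory genes that NF-kappaB is known to induce differed unevenly. Among 13 that reached a mean of 1 FPKM, 9 had higher and 4 had lower levels with shKIAA1429, against 57.3% higher genes overall. The median log2 change of the list was 0.64, against 0.06 for all genes. For those of the list that reached a mean of 5 FPKM it was -0.029. TNFAIP6, which encodes the hyaluronan-binding protein TSG-6 and binds CXCL8, was at 2.94 FPKM with shNC and at 14.0 FPKM with shKIAA1429. Its log2 change was 1.93. It was the 1 gene of this list higher by more than 1.5, against 0.392% of all genes. PLAU, the urokinase plasminogen activator, was at 64.0 and 137 FPKM, a log2 change of 1.09. LIF was at 36.7 and 35.9 FPKM, and TNFAIP2 was at 30.4 and 24.2 FPKM. For factors that bind AU-rich elements or degrade their mRNAs, 6 genes were higher and 6 were lower, against 57.3% higher among all genes. Their median was 0.013, against 0.06 for all genes, and became -0.045 after centring. ZFP36L1 (173 and 169 FPKM), KHSRP (47.8 and 49.0 FPKM) and HNRNPD (28.2 and 20.2 FPKM) were the most abundant.

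**Figure D4:**
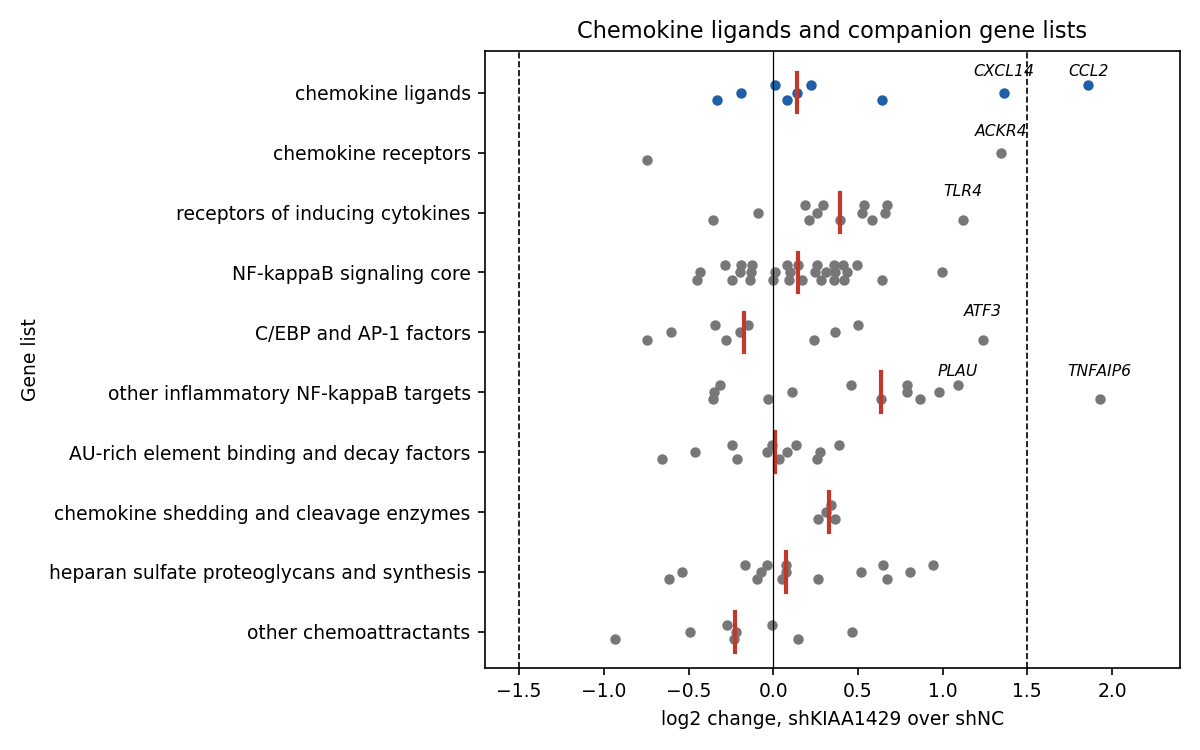
Log2 change of each gene that reached a mean of 1 FPKM, shKIAA1429 over shNC, for the chemokine ligands (blue) and 9 companion lists (grey), without the cell type markers, with a red bar at the median of lists of more than 2 genes and dashed lines at 1.5 in either direction. TNFAIP6 and CCL2 are the points past 1.5, and the genes labelled are those past 1.

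The labelled cell type was checked with markers of renal carcinoma or tubular epithelium, of which 9 of 10 had a row. Among them were VIM (368 and 228 FPKM with shNC and shKIAA1429), KRT19 (292 and 212 FPKM) and PAX8 (64.7 and 104 FPKM). Of 12 leukocyte markers, 2 had a row, and they summed to 7.80 FPKM in the control and to 2.21 FPKM with shKIAA1429. LYZ was at 3.93 and 0.154 FPKM and CD68 at 3.87 and 2.06 FPKM. PTPRC, CD3E and CD14 had no row and were not analysed here. Of 5 endothelial markers 0 had a row, and of 6 fibroblast markers 2 did, COL1A1 at 1.08 and 1.62 FPKM and PDGFRB at 0.667 and 0.977 FPKM. The part of these genes in the chemokine differences was not tested.

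Among listed genes within 200000 bases of a chemokine gene, the highest log2 change was that of RASSF6. CCL2 had 0 listed neighbours in this range, and CXCL14 had 1, H2AFY, at 3.62 FPKM with shNC and 4.74 FPKM with shKIAA1429, a log2 change of 0.31. Around the cluster on chromosome 4, MTHFD2L was at 0.587 and 0.919 FPKM. RASSF6, 119875 bases from CXCL8, was at 1.33 and 4.38 FPKM, a log2 change of 1.20. Around CXCL16, 12 genes had log2 changes from -0.47 (PELP1) to 0.46 (C17orf107), the others being SPNS2, MYBBP1A, SMTNL2, ARRB2, MED11, VMO1, PSMB6, PLD2, MINK1 and SLC25A11. Around CX3CL1, 9 genes had changes from -0.60 (COQ9) to 0.89 (ARL2BP), the others being FAM192A, RSPRY1, PLLP, CIAPIN1, POLR2C, DOK4 and CCDC102A. Around CCL28, 6 genes had changes from -0.19 (ZNF131) to 0.90 (C5orf34), the others being HMGCS1, TMEM267, PAIP1 and NNT.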

How the data were processed

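Poly(A) RNA of ACHN cells was sequenced in 2 strand-specific paired-end libraries, 1 with shKIAA1429 and 1 with shNC, grouped by their treatment labels. The authors deposited FPKM values per gene. The submitters' processing notes name cutadapt 1.9, HISAT2 2.0.4, StringTie 1.3.4d, DESeq2 and edgeR, without saying what each was used for, and the genome build is not given in the sources used here. Positions in the files are those of GENCODE genes on GRCh37. They hold 12014 protein-coding genes, and each of these exceeds 0.5 FPKM in 1 library or both. FPKM keeps no read count and low values were not multiples of a common step, so the depth behind a value, and with it a counting interval, could not be given.

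The chemokine ligands were the rows whose symbol was CCL, CXCL, CX3CL or XCL followed by a number. The change of each gene was computed as log2(FPKM + 1) with shKIAA1429 minus that with shNC, on which differences of genes with low FPKM appear too small. Counts cover the 10708 genes that reached a mean of 1 FPKM, and the log2 limit of 1.5 is the number that the study's methods give for the log2 fold change of a count model. With 1 library per group, no test was run. The members and the 14 companion lists were chosen with earlier results of these data known. From each list, the 3 genes with the highest mean FPKM and those past 1 on the log2 scale were named, besides listed neighbours within 200000 bases of a chemokine gene and the 3 genes nearest to the most changed one by the distance of the log2(FPKM + 1) values.

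Promoter windows came from RefSeq (GRCh38.p14) and were matched by symbol. Transcripts came from GENCODE 29 on GRCh38, 1 per gene, a principal isoform where one was marked and otherwise the longest coding transcript, and 10637 of the 10708 genes (99.3%) had one by Ensembl identifier. Identity was counted in global alignments. Alternatives tried were subtracting the median change of all genes, a pseudocount of 0.1, rescaling each library to a sum of 1000000 with or without mitochondrial genes, no filter, a mean FPKM of at least 5, a limit of 1, and summing rows of a symbol, with the sum of CXCL1, CXCL2 and CXCL3 and a rescaling to the mean of both sums added after seeing the data. Only the computation of the change of each gene was first tested on simulated data. Python 3.11.15, NumPy 2.4.6, pandas 2.3.3, Biopython 1.88 and matplotlib 3.10.9 were used.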

Additional observations from a re-analysis of the deposited data

How the results depend on the processing

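With 1 library per group, depth unknown and 9 genes, these values describe the libraries and have no error. Of 63 values of single chemokine genes under the alternatives, 58 kept their sign and their side of 1.5. For 9 of these 58 this was fixed in advance, since each chemokine gene had 1 row and summing rows of a symbol changed nothing. CXCL14 passed 1.5 with a pseudocount of 0.1 (1.51), after rescaling (1.66) and after rescaling without mitochondrial genes (1.51), and CXCL2 changed sign after centring (-0.048). The count of chemokine genes higher by more than the limit was then 2 in place of 1 in those 3 settings and with a limit of 1. The median of the family, 0.14, became 0.25 (pseudocount 0.1), 0.081 (centring), 0.36 and 0.24 (the rescalings), and 0.64 for the 5 members that reached a mean of 5 FPKM. For all genes, 42 higher and 27 lower became 114 and 60 with a pseudocount of 0.1, 109 and 57 after rescaling without mitochondrial genes, and 174 and 96 with a limit of 1. Rescaling with these genes gave 135 higher and 32 lower genes and a median of 0.24, and a minimum mean of 5 FPKM left 24 higher, since fewer genes were counted. Medians of lists that changed sign at that minimum were those of inflammatory targets (-0.029) and AU-rich element factors (-0.0082). That of AU-rich element factors also changed sign after centring (-0.045). Those of C/EBP and AP-1 factors (0.0046) and of renal carcinoma or epithelium markers (0.11) did so after rescaling. Rescaling to 1000000 also shrinks the relative pseudocount. Rescaling to the mean of both sums, chosen after seeing the data, gave 57 higher and 20 lower genes, a median of 0.21, 2 chemokine genes higher (CXCL14 at 1.52) and a family median of 0.23. Without mitochondrial genes it gave 43 and 27, 1 chemokine gene and 0.14, so the rise to 109 and 57 went with the pseudocount and not with the library sums. Otherwise the cause was not tested. CXCL1 summed with CXCL2 and CXCL3 was at 0.41 against 0.64. No paired analysis was possible because each group holds a single library.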

Other observations

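Chemoattractants outside the chemokine family were lower with shKIAA1429 for 6 of 8 genes, whereas 57.3% of all genes were higher. Their median log2 change was -0.23, against 0.06 for all genes. It was -0.28 after centring. After rescaling to a sum of 1000000 it was -0.070, against 0.24 for all genes. MIF, the macrophage migration inhibitory factor, was at 318 FPKM with shNC and 273 FPKM with shKIAA1429. RARRES2, which encodes chemerin, was at 295 and 209.6 FPKM, and ANXA1, the glucocorticoid-induced annexin A1, was at 53.3 and 73.8 FPKM. The other members were lower in level, with HMGB1 at 25.9 and 25.7 FPKM, CKLF at 24.5 and 20.1 FPKM, and C3, C5 and SAA1 under 3 FPKM in both libraries. None of the 8 genes (0 genes) passed 1 on the log2 scale, against 1.62% of all genes higher and 0.897% lower. For heparan sulfate proteoglycans, which hold chemokines at the cell surface, and the enzymes that build their chains, 9 genes were higher and 6 lower. Of all genes 57.3% were higher, close to the share of this list. The median log2 change of the list was 0.07, against 0.06 for all genes. SDC4 was at 77.6 and 81.8 FPKM, EXT1 at 49.3 and 46.7 FPKM and NDST1 at 33.6 and 34.9 FPKM.

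The genes whose pair of levels was nearest to that of CCL2, by the Euclidean distance of the log2(FPKM + 1) values over the 2 libraries, were E2F7 (distance 0.047, 4.32 and 17.6 FPKM), GRB2 (distance 0.18, 3.95 and 15.6 FPKM) and EHD2 (distance 0.26, 3.91 and 21.2 FPKM). With 2 libraries this likeness says only that the levels were close.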
